A study of Rattus norvegicus with 30 samples.

Results

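The genes described here encode enzymes that interconvert alcohols, aldehydes, ketones and acids in the liver: the alcohol dehydrogenases (Adh), the aldehyde dehydrogenases (Aldh), the aldo-keto reductases of family 1 (Akr1), and short-chain dehydrogenases of the Dhrs and Rdh groups. They were chosen by name. Every gene on the array whose symbol began with Adh and a digit, Aldh, Akr1, Dhrs or Rdh was taken, except Aldh3a1, Akr1b7 and Dhrs7l1. This gave 51 of the 14217 genes that could be read: 5 Adh, 16 Aldh, 12 Akr1, 10 Dhrs and 8 Rdh genes. Each gene was read from 1 probe set, the one with the highest mean over all 30 arrays. The working name of the group speaks of reducing enzymes, but most Aldh members oxidise aldehydes, and many of the dehydrogenases act in both directions.

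Livers came from Wistar/Han rats that had received DE-71, a flame retardant made of polybrominated diphenyl ethers (PBDEs) of several kinds, or its vehicle, corn oil. Dams were gavaged with 0 or 50 mg/kg in 5 ml/kg on 7 days a week, starting on gestation day 6 and ending on day 21 after birth; the pups were also dosed directly up to day 21, and after weaning dosing ran on 5 days a week. There were 6 groups of 5 livers: vehicle and DE-71 male pups and vehicle and DE-71 female pups on postnatal day 22, and vehicle and DE-71 adult males at week 13. The labels call the vehicle animals untreated or control. Each pup had its own dam, and so did each adult within its dose group; all adults analysed here were male, and liver pieces hold all cell types of the organ. The arrays were Affymetrix rat genome arrays, and values are RMA-normalised log2 intensities. A difference of 1 is therefore a 2-fold change. Levels of different probe sets are not comparable with each other, so only the same gene is compared between groups.

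As background, alcohol dehydrogenases turn ethanol and other alcohols, retinol among them, into aldehydes, and aldehyde dehydrogenases turn those aldehydes into acids. In the vitamin A pathway, retinol is oxidised to retinal by retinol dehydrogenases such as Rdh10, and retinal is oxidised to retinoic acid by the Aldh1a enzymes, while Dhrs3 and Dhrs4 are among the enzymes that reduce retinal back to retinol. Aldo-keto reductases use NADPH to reduce aldehydes and ketones, and several Akr1c enzymes act on steroid hormones and on products of lipid peroxidation.

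Promoters are shown for Aldh1a1 and Akr1c13, the members called in more than 1 dose comparison, and for Akr1c3 and Akr1c14, cluster neighbours of Akr1c13 whose promoters share a run of letters. They come from the RefSeq promoter table (build GRCr8), which held 41 of the 51 genes. Each runs from 250 bases before to 50 bases after the annotated start and is written 5′ to 3′ on the strand of the gene. Aldh1a1, which encodes a cytosolic retinal dehydrogenase, lies at chr1:227537370-227537669 on the plus strand. Akr1c13 lies at chr17:70894386-70894685 on the plus strand, Akr1c3 at chr17:71020634-71020933 on the plus strand and Akr1c14 at chr17:71083135-71083434 on the minus strand. They are neighbours in 1 cluster of aldo-keto reductase genes. Capitals mark the TATA box (TATAAA), the CCAAT box (CCAAT) and the octamer (ATGCAAAT) on either strand, and, in Akr1c3 and Akr1c14, the longest run of letters that both promoters share.
Aldh1a1: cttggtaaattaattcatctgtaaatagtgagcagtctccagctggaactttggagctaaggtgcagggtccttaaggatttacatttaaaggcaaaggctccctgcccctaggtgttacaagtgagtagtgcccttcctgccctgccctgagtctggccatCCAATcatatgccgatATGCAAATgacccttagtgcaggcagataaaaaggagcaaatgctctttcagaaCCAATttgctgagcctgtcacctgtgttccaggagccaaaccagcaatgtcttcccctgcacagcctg
Akr1c13: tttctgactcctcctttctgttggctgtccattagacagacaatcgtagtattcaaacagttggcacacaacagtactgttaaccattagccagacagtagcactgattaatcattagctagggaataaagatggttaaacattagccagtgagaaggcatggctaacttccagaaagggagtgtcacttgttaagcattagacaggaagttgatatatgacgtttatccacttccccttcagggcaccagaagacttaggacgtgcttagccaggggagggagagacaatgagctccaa
Akr1c3: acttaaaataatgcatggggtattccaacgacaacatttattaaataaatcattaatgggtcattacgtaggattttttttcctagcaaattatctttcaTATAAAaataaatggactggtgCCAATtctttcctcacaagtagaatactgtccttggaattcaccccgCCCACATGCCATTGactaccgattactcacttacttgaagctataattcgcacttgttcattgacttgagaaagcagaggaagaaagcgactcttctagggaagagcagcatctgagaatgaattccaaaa
Akr1c14: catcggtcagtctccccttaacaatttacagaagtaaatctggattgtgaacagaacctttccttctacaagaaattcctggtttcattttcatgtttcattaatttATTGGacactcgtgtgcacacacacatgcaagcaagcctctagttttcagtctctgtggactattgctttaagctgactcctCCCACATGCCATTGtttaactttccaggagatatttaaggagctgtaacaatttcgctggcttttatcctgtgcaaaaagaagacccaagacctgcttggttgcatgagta
The shared run of 14 letters, CCCACATGCCATTG, was present in 2 of 33469 promoters in the table, those of Akr1c3 and Akr1c14. It was picked as the longest run these 2 promoters share, so its presence in both was fixed in advance. Whether it has any role was not tested. Aligned over their whole length, these promoters matched at 167 of 339 columns (49.3%). Among all pairs of cluster members with a promoter in the table, this share ran from 41.7% to 49.3%. CCAAT was present in 21 of the 41 members' promoters (51.2%), against 37.5% of all promoters, and was absent as a string from the Akr1c13 promoter, which holds none of the marked motifs. The octamer ATGCAAAT, present in 1.78% of all promoters, was found in 2 members (4.88%), among them Aldh1a1; CCAAT and the octamer were chosen for display after the sequence had been read. The core of the xenobiotic response element, GCGTG, was found on either strand in 14 of the 41 members (34.1%) against 29.7% of all promoters, the antioxidant response core TGACNNNGC in 6 (14.6%) against 12.1%, and the nuclear receptor half-site AGGTCA in 6 (14.6%) against 16.2%. None of these last motifs was found in the 4 promoters printed above, which says only that the letters are not in these windows.

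Array medians ran from 5.72 to 5.77 and the correlations within groups from 0.988 to 0.994; no arrays were identical. Of the 51 members, 46 had a mean above the median of all probe sets, 5.75. The array names divide the arrays into 2 sets of 15. The first held the vehicle pups of both sexes and the male DE-71 pups, and the second held the female DE-71 pups and all adults. Array set and group cannot be told apart for DE-71 in female pups, for the sexes under DE-71, for sex by dose and for both age comparisons; the comparison of the sexes under vehicle and those of the doses in males of either age each lay within 1 set. Xist lay between 10.75 and 12.24 in female pups and between 3.08 and 3.67 in males, and the Y-linked Eif2s3y between 3.30 and 3.82 in females and 9.14 and 9.83 in males, matching the labels of sex. The probe set read for Uty did not behave as a Y-linked gene (9.46 to 9.98 in females, 8.61 to 9.16 in males). The 3′ minus 5′ Gapdh difference, a sign of RNA quality that is higher in more degraded RNA, had a median of 1.61 in vehicle and 1.88 in DE-71 male pups, 1.1 and 1.82 in female pups, and 0.625 and 0.914 in adults. With this difference as a covariate, 6 members were called in male pups, 3 in female pups and 4 in adults. The share of all genes called was not worked out for that fit. Markers of hepatocytes were high in every group, with summed linear values of 153000 to 174000 over 6 of the 7 listed genes.

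Few of these enzymes passed the test under DE-71. In male pups, Aldh1a1, Akr1c13 and Akr1e2 rose and Aldh18a1 fell, so 4 of 51 passed a false discovery rate of 0.01 in limma's moderated test (7.84% of members, against 7.48% of all 14217 genes, 4.23% higher and 3.26% lower). In female pups, Aldh1a1 and Akr1c13 rose and Rdh7 fell, or 3 of 51 (5.88%, against 6.13% of all genes, 3.95% higher and 2.18% lower). In adult males, Aldh1a1 rose and Adh7 and Adh1c fell at a false discovery rate of 0.05, again 3 of 51 (5.88%, against 3.9% of all genes, 1.86% higher and 2.04% lower). The share of members called was thus near that of the whole array in pups. Of the 7 genes called in any of these 3 comparisons, Aldh1a1 was the one called in all 3.

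The median change of the members under DE-71 was 0.06 in male pups, 0.03 in female pups and -0.03 in adults, against 0.02, 0.02 and 0.01 over all 14217 genes. The median size of the change regardless of direction was 0.16, 0.16 and 0.15, against 0.12, 0.11 and 0.10. Most of the uncalled members had narrow intervals. For 44 of the 47 uncalled members in male pups, 45 of 48 in female pups and 45 of 48 in adults, the 95% interval of the change lay within 1 log2 unit of 0. The exceptions were Adh4, Akr1c3 and Aldh1b1 in male pups, Akr1b8, Akr1c3 and Aldh1b1 in female pups, and Adh4, Akr1b8 and Rdh16 in adults. The vehicle and DE-71 values did not overlap for 9 members in male pups (11.9% of all genes), 9 in female pups (10.9%) and 2 in adults (4.59%).

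**Figure D1:**
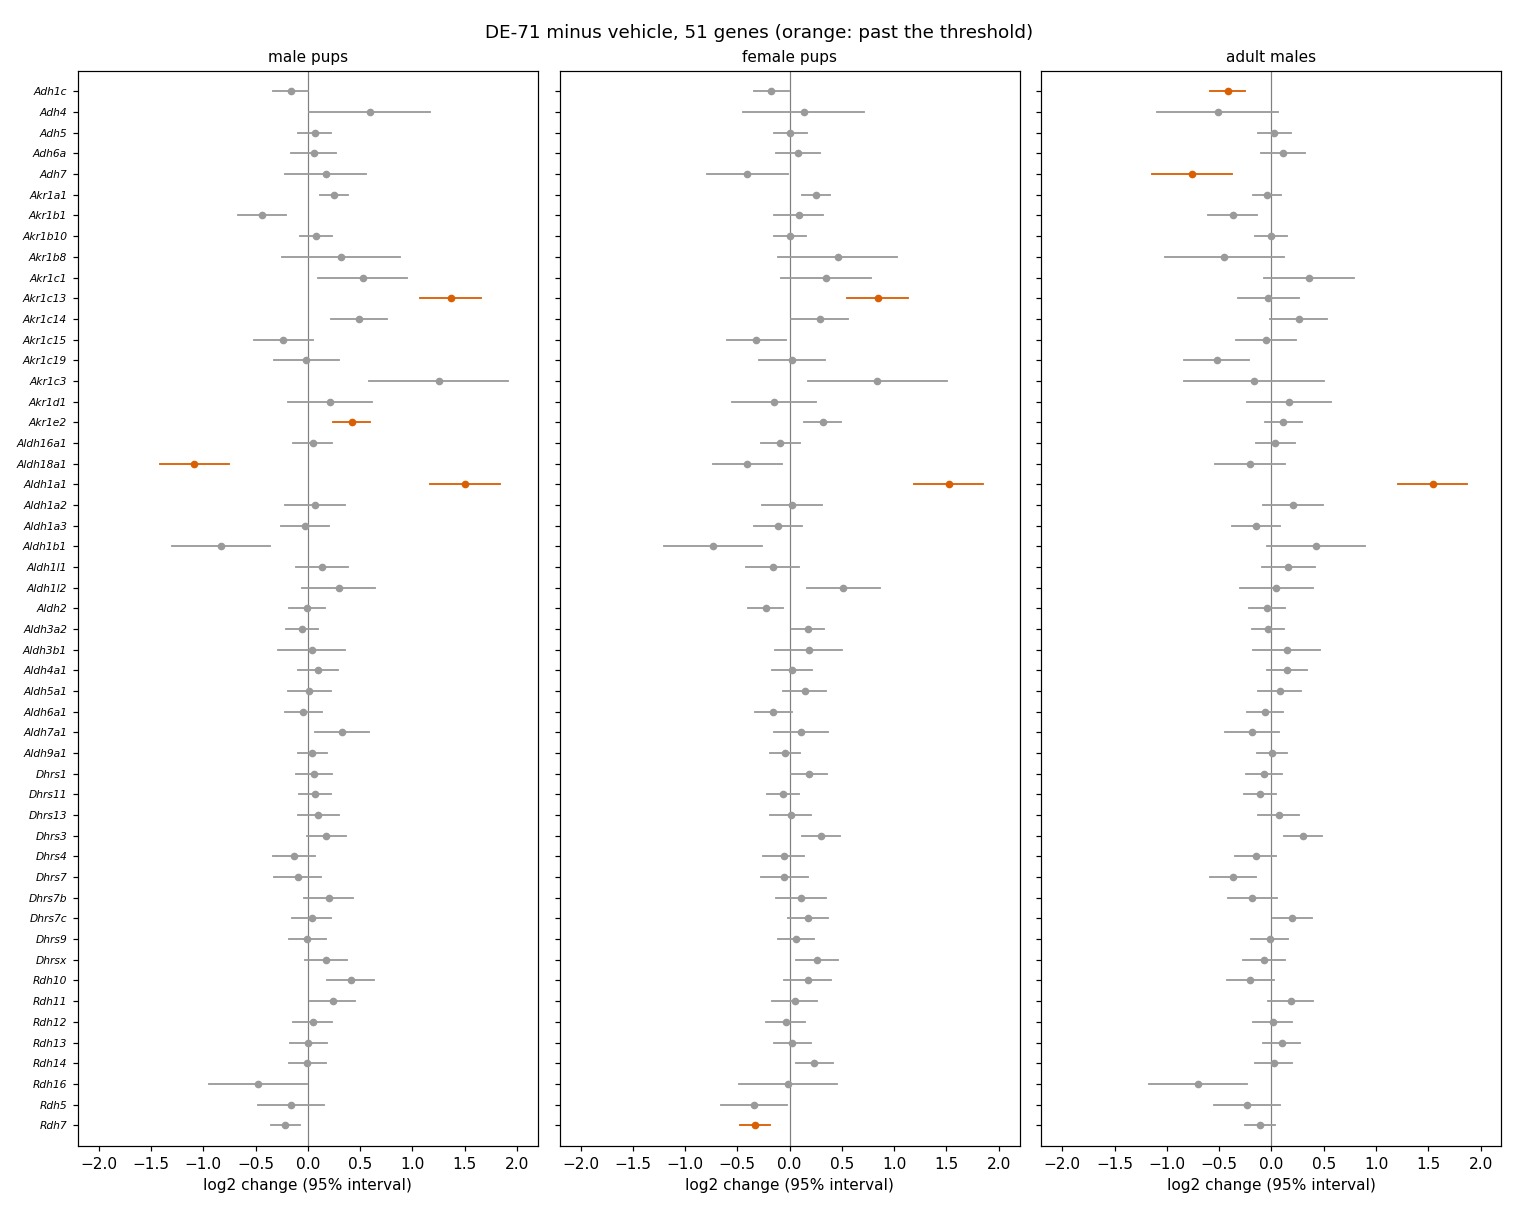
Change under DE-71 (log2 DE-71 minus vehicle, x axis) of all 51 genes (y axis) in male pups, female pups and adult males, with 95% intervals from the limma fit; 5 arrays a group. Orange marks genes past the threshold: Aldh1a1 lies near 1.5 in all 3 panels, Akr1c13 is orange in the pup panels and lies at -0.03 in adults, and most other intervals lie close to 0.

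Aldh1a1 was about 2.9 times as high in DE-71 livers as in vehicle livers at both ages and in both sexes of pups. The vehicle male pups read 12.11, 12.39, 12.13, 11.61 and 12.11, and the DE-71 male pups 13.73, 13.57, 13.52, 13.51 and 13.54. In female pups the vehicle values were 11.92, 12.35, 11.70, 11.44 and 12.29 and the DE-71 values 13.54, 13.43, 13.46, 13.68 and 13.20. In adult males the vehicle values of Aldh1a1 were 11.95, 11.87, 11.35, 11.79 and 11.10 and the DE-71 values 13.29, 12.81, 13.14, 13.21 and 13.32. Every DE-71 array lay above every vehicle array, also across ages and sexes. The change was 1.5 ± 0.16 (SE) in male pups (2.84-fold, adjusted p = 2.18e-07, limma), 1.52 ± 0.16 in female pups (2.87-fold, adjusted p = 2.65e-07) and 1.54 ± 0.16 in adults (2.91-fold, adjusted p = 4.22e-07). The difference between adults and male pups in this change was 0.04 ± 0.23, with a 95% interval of -0.43 to 0.51, and that between male and female pups was -0.02 ± 0.23, with an interval of -0.49 to 0.45.

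The other enzymes that make retinoic acid from retinal did not pass in any dose comparison. Aldh1a2 gave differences of 0.07, 0.02 and 0.21 in male pups, female pups and adults, and Aldh1a3 of -0.03, -0.11 and -0.15. Aldh2, the mitochondrial enzyme of acetaldehyde oxidation, gave 12.78 ± 0.16 in vehicle and 12.78 ± 0.21 in DE-71 male pups (SD, n = 5). In female pups Aldh2 was 12.93 ± 0.05 and 12.70 ± 0.07; these values did not overlap, yet the difference did not pass.

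Aldh18a1, which makes the first committed intermediate of proline synthesis from glutamate, fell in male pups. Vehicle male pups read 6.42, 6.45, 6.93, 7.17 and 6.93, and DE-71 male pups 5.75, 5.88, 5.56, 5.62 and 5.65, with no overlap. The change of Aldh18a1 was -1.09 ± 0.16 (2.12-fold lower, adjusted p = 3.3e-05). In female pups the vehicle values were 6.55, 6.05, 6.00, 6.34 and 5.77 and the DE-71 values 5.54, 5.72, 5.96, 5.91 and 5.54; the change of -0.41 ± 0.16 did not pass (adjusted p = 0.13). Adult vehicle arrays read 5.25, 5.61, 5.61, 5.39 and 5.28 and adult DE-71 arrays 5.49, 4.70, 5.41, 5.61 and 4.90 (change -0.21 ± 0.16, adjusted p = 0.581). All adult values and most DE-71 pup values of Aldh18a1 lay below or close to the array median of 5.75, where array values respond less to the amount of RNA, so the fitted changes may be too small.

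Aldh1b1, a mitochondrial aldehyde dehydrogenase, had differences of opposite sign at the 2 ages, none past the threshold. Vehicle male pups read 9.93, 9.82, 10.64, 10.34 and 10.35, and DE-71 male pups 9.08, 9.67, 9.61, 9.04 and 9.55. These groups did not overlap, and the change of Aldh1b1 was -0.83 ± 0.23 (adjusted p = 0.0167). Female pups read 9.69, 10.19, 10.49, 9.74 and 10.14 under vehicle and 9.44, 9.74, 9.21, 8.90 and 9.31 under DE-71 (change -0.73 ± 0.23, adjusted p = 0.0427, against the 0.01 set for pups). In adults the vehicle values were 6.99, 6.70, 7.76, 6.71 and 7.07 and the DE-71 values 7.94, 7.88, 6.75, 6.99 and 7.81, with a change of 0.43 ± 0.23 (adjusted p = 0.362). The 3 highest Aldh1b1 values under DE-71 in adults lay above all vehicle values and the other 2 within their range. With male pups of the 2 doses fitted alone, the change in male pups passed (adjusted p = 0.00901).

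**Figure D2:**
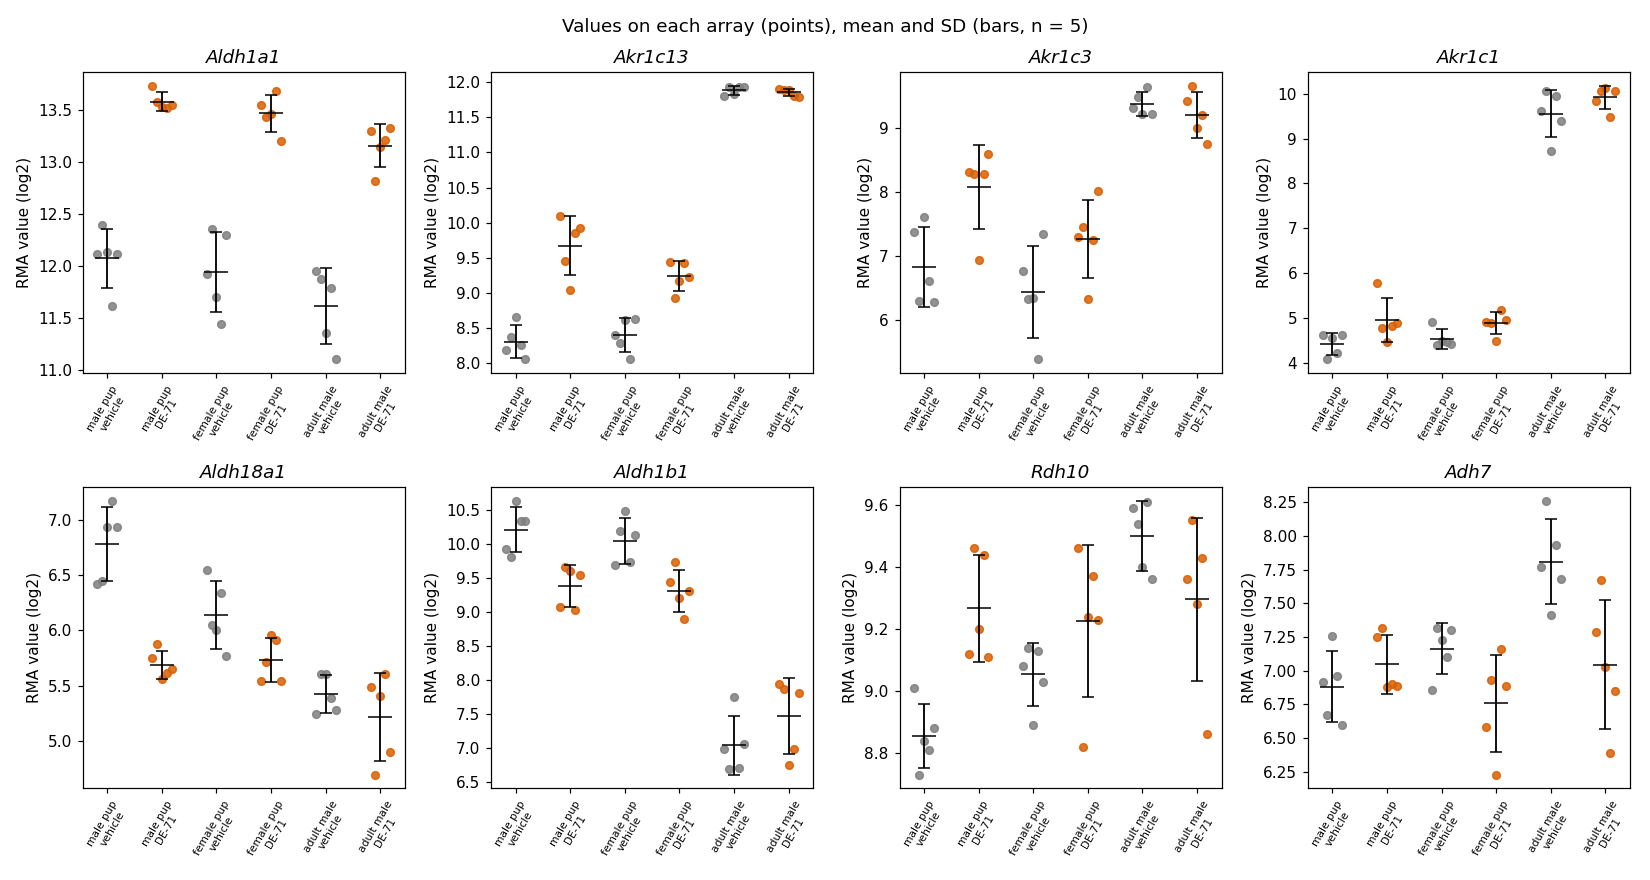
RMA log2 value (y axis, scaled separately for each gene) on every array in the 6 groups (x axis) for 8 of the genes; horizontal lines and bars give the mean and SD of 5 arrays, grey is vehicle and orange DE-71. Aldh1a1 is higher in all 3 DE-71 groups, Akr1c13 is higher in DE-71 pups and highest in all adults, and Akr1c1 averages 4.42 to 4.95 in pups and 9.55 and 9.92 in adults.

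Among the aldo-keto reductases, calls under DE-71 from representative probe sets were in pups, on genes of a cluster on chromosome 17. In the RefSeq gene order this cluster holds 10 Akr1 genes, with 1 other coding gene between them, and 7 of the 10 are members here: Akr1e2, Akr1c1, Akr1c13, Akr1c19, Akr1c3, Akr1c14 and Akr1c15, in that order. Genes of the cluster are close relatives, and RefSeq's synonyms of Akr1c12 and Akr1c13 cross each other, so a probe set may also read RNA of a neighbour. Of the 12 Akr1 members, 2 rose in male pups, 1 rose in female pups and none passed in adults (changes from -0.53 to 0.36). Of all genes, 4.23%, 3.95% and 1.86% were called higher in these comparisons. Other probe sets of Akr1c14 did pass in adults, as given below.

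Akr1c13 rose in pups of both sexes. Vehicle male pups read 8.18, 8.37, 8.66, 8.26 and 8.05, and DE-71 male pups 10.10, 9.45, 9.04, 9.85 and 9.92. Vehicle female pups read 8.40, 8.28, 8.61, 8.06 and 8.63, and DE-71 female pups 9.44, 8.93, 9.17, 9.43 and 9.22. The groups did not overlap in either sex. The change of Akr1c13 was 1.37 ± 0.14 in male pups (2.58-fold, adjusted p = 1.21e-07) and 0.84 ± 0.14 in female pups (1.79-fold, adjusted p = 2.25e-04). In adults the vehicle arrays read 11.81, 11.93, 11.83, 11.94 and 11.94 and the DE-71 arrays 11.91, 11.89, 11.89, 11.81 and 11.79. The adult change of -0.03 ± 0.14 had a 95% interval of -0.32 to 0.26, and all adult values lay above all pup values.

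Akr1c3, whose older symbol Akr1c18 denotes the 20-alpha-hydroxysteroid dehydrogenase that inactivates progesterone, had the largest spread within groups of all members (pooled SD 0.56, against a median of 0.17). Vehicle male pups read 7.38, 6.29, 7.61, 6.60 and 6.28 and DE-71 male pups 8.32, 8.29, 6.93, 8.29 and 8.60. All but 1 of the DE-71 arrays lay above all vehicle arrays; replicate 3 of the DE-71 male pups, at 6.93, lay within their range. The change of Akr1c3 was 1.25 ± 0.33 and did not pass in male pups (adjusted p = 0.0108). Without that array it was 1.54 and passed (adjusted p = 0.00167). It also passed without replicate 1 (adjusted p = 0.00815) or replicate 3 (adjusted p = 0.00538) of the vehicle male pups. With all arrays kept, Akr1c3 passed after a new quantile normalization (adjusted p = 0.00997) and with a filter on low values (adjusted p = 0.00753). In female pups the vehicle values were 6.76, 6.32, 6.34, 5.38 and 7.35 and the DE-71 values 7.30, 7.45, 6.32, 7.25 and 8.02 (change 0.84 ± 0.33, adjusted p = 0.12). Adults read 9.32, 9.49, 9.22, 9.64 and 9.22 under vehicle and 9.43, 9.67, 9.0, 9.21 and 8.75 under DE-71 (change -0.17 ± 0.33, adjusted p = 0.856).

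Akr1e2, which reduces 1,5-anhydrofructose, rose in male pups by a smaller amount. Its vehicle values were 10.20, 10.11, 10.10, 10.15 and 10.09 and its DE-71 values 10.70, 10.62, 10.36, 10.57 and 10.48, with no overlap (change 0.42 ± 0.09, adjusted p = 0.00163). In female pups Akr1e2 read 10.42, 10.28, 10.19, 10.01 and 10.37 under vehicle and 10.52, 10.47, 10.51, 10.73 and 10.63 under DE-71. These groups did not overlap either, but the change of 0.32 ± 0.09 missed the threshold (adjusted p = 0.0198). In adults the change of Akr1e2 was 0.11 ± 0.09.

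Akr1c14, whose older symbol Akr1c9 denotes the 3-alpha-hydroxysteroid dehydrogenase of rat liver, gave a result that depended on the probe set. Its representative probe set was 12.55 ± 0.20 in vehicle and 13.04 ± 0.32 in DE-71 male pups (SD, n = 5), a change of 0.49 ± 0.13 (SE) that did not pass (adjusted p = 0.0142). Of the other 2 probe sets of Akr1c14, 1 passed in all 3 dose comparisons, with changes of 0.63 in male pups (adjusted p = 5.58e-06), 0.53 in female pups (adjusted p = 6.80e-05) and 0.51 in adults (adjusted p = 4.89e-04). The other passed in male pups (0.56, adjusted p = 6.98e-04) and in adults (0.43, adjusted p = 0.0209) but not in female pups (0.37, adjusted p = 0.0267). All 3 probe sets had a positive change in each dose comparison. With the Gapdh difference as a covariate, the representative of Akr1c14 passed in all 3 dose comparisons. The mean of its 3 probe sets passed in male pups and adults but not in female pups. Akr1d1, the steroid 5-beta-reductase of bile acid synthesis, likewise had a second probe set that passed in male pups (0.50, adjusted p = 0.00845) beside a representative that did not (0.21, adjusted p = 0.568).

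Outside the cluster, Akr1b1, the aldose reductase of the polyol pathway, did not overlap between the groups in male pups and missed the threshold (change -0.44 ± 0.11, adjusted p = 0.0108); it was 0.09 ± 0.11 in female pups and -0.37 ± 0.11 in adults (adjusted p = 0.071). Akr1a1, an aldehyde reductase of broad substrate range, did not overlap in either sex of pups, with changes of 0.25 (adjusted p = 0.0119) in males and 0.26 (adjusted p = 0.012) in females. Within the cluster, Akr1c19 was 7.67 ± 0.31 in vehicle and 7.14 ± 0.39 in DE-71 adults (SD, n = 5). Its change of -0.53 ± 0.15 (SE) did not pass with all arrays and all probe sets (adjusted p = 0.0571). With a filter on low values, which kept all arrays, it passed (adjusted p = 0.0408). It also passed without replicate 2 (0.0405) or 4 (0.0484) of the vehicle adults or replicate 3 (0.0214) or 4 (0.0354) of the DE-71 adults, as adjusted p.

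Of the 5 alcohol dehydrogenases, none passed in pups, and Adh7 and Adh1c fell in adults. Of all genes, 7.48% and 6.13% were called in male and female pups, and 2.04% were called lower in adults. All 5 members lie in 1 cluster on chromosome 2, where the order of genes is Adh7, Adh1c, Adh6a, Adh6 (not a member), Adh4 and Adh5. Adh7, the class of alcohol dehydrogenase best known from stomach and other epithelia, read 7.77, 8.26, 7.41, 7.93 and 7.68 in vehicle adults and 7.29, 7.67, 7.03, 6.39 and 6.85 in DE-71 adults. The groups overlapped by 1 DE-71 array, and the change of Adh7 was -0.76 ± 0.19 (1.70-fold lower, adjusted p = 0.0199). The call of Adh7 was lost without replicate 2 of the vehicle adults (adjusted p = 0.0725), without replicate 4 (0.083) or replicate 5 (0.0595) of the DE-71 adults, and with the adult groups fitted alone (0.137). In pups Adh7 changed by 0.17 ± 0.19 in males and -0.40 ± 0.19 in females, neither past the threshold.

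Adh1c, the class I enzyme that oxidises ethanol in hepatocytes, read near the top of the RMA scale, where differences are compressed. Its values were 14.41, 14.33, 14.15, 14.36 and 14.21 in vehicle adults and 13.87, 14.22, 13.98, 13.52 and 13.79 in DE-71 adults. All but 1 of the DE-71 arrays lay below all vehicle arrays. The change of Adh1c was -0.42 ± 0.08 (1.34-fold lower, adjusted p = 0.00286), and with the adult groups fitted alone it did not pass (adjusted p = 0.132). A second probe set for Adh1c, further from the top of the scale, changed by -0.93 ± 0.23 (adjusted p = 0.0216). In pups Adh1c did not overlap between the doses in either sex, but the changes of -0.16 and -0.17 did not pass. Adh4 was 0.59 ± 0.28 in male pups, 0.13 ± 0.28 in female pups and -0.52 ± 0.28 in adults, with no call. Adh5, which disposes of formaldehyde bound to glutathione, was 11.84 ± 0.06 in vehicle and 11.90 ± 0.09 in DE-71 male pups and 11.46 ± 0.20 and 11.49 ± 0.15 in adults (SD, n = 5).

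Among the short-chain dehydrogenases, 1 of 8 Rdh members and none of 10 Dhrs members passed in any dose comparison. With 7.48%, 6.13% and 3.9% of all genes called in male pups, female pups and adults, these counts are near the background. Rdh7, a microsomal retinol and steroid dehydrogenase, read 13.11, 13.08, 12.98, 13.01 and 13.23 in vehicle female pups and 12.76, 12.68, 12.80, 12.91 and 12.60 in DE-71 female pups. The groups did not overlap, and the change of Rdh7 was -0.33 ± 0.07 (1.26-fold lower, adjusted p = 0.00197). It was lost without replicate 5 of the DE-71 female pups (adjusted p = 0.0106), with the female groups fitted alone (0.0192) and with the Gapdh difference as a covariate (0.0111). In male pups Rdh7 changed by -0.22 ± 0.07 (adjusted p = 0.0409) and in adults by -0.11 ± 0.07 (adjusted p = 0.452).

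Rdh10, the retinol dehydrogenase that supplies retinal for retinoic acid synthesis, read 9.01, 8.73, 8.84, 8.81 and 8.88 in vehicle male pups and 9.12, 9.46, 9.20, 9.44 and 9.11 in DE-71 male pups. These groups did not overlap, and the change of Rdh10 was 0.41 ± 0.11 (adjusted p = 0.014, above the 0.01 set for pups). With the Gapdh difference as a covariate it passed (adjusted p = 0.00103), and with a filter on low values too (adjusted p = 0.00932). Female pups read 9.08, 9.14, 8.89, 9.13 and 9.03 under vehicle and 9.46, 8.82, 9.24, 9.37 and 9.23 under DE-71 (change 0.17 ± 0.11, adjusted p = 0.41). Adults read 9.59, 9.54, 9.40, 9.61 and 9.36 under vehicle and 9.36, 9.55, 9.28, 9.43 and 8.86 under DE-71 (change -0.20 ± 0.11, adjusted p = 0.364). The 10 Dhrs members changed by -0.13 to 0.20 in male pups, -0.06 to 0.30 in female pups and -0.37 to 0.30 in adults. The ends of these ranges include Dhrs3, at 0.30 ± 0.09 in female pups (adjusted p = 0.035) and 0.30 ± 0.09 in adults (adjusted p = 0.0601), and Dhrs7, whose values did not overlap in adults (-0.37 ± 0.11, adjusted p = 0.0603).

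The sexes were compared in pups. No member passed in male against female vehicle pups at a false discovery rate of 0.01 in limma (0.0422% of all genes did), none passed in DE-71 pups (0.0563%), and none passed for sex by dose (0%). At an unadjusted p under 0.05 there were 7, 7 and 5 members, and the lowest adjusted p values were 0.129, 0.405 and 0.761. The sexes did not overlap for 3 members under vehicle (1.55% of all genes) and 2 under DE-71 (1.06%). The lowest in vehicle pups was that of Aldh18a1, 6.78 ± 0.33 in males and 6.14 ± 0.30 in females (SD, n = 5). The response of Aldh18a1 to DE-71 differed between the sexes by -0.68 (95% interval -1.15 to -0.21) and that of Akr1c13 by 0.53 (0.11 to 0.94), neither past the threshold (adjusted p = 0.848 and 0.906).

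The response to DE-71 differed between adult males and male pups for 4 of 51 members at a false discovery rate of 0.05 (7.84%, against 2.48% of all genes), 2 of them with a higher response in adults (1.13%) and 2 with a lower one (1.35%). The difference was -1.40 ± 0.20 for Akr1c13 (adjusted p = 2.03e-04), -0.61 ± 0.16 for Rdh10 (adjusted p = 0.0349), 0.88 ± 0.23 for Aldh18a1 (adjusted p = 0.0408) and 1.26 ± 0.32 for Aldh1b1 (adjusted p = 0.0391). For Akr1c13 and Aldh18a1 the male pups passed alone and the adults did not, while for Rdh10 and Aldh1b1 neither age passed alone and the differences had opposite signs. Akr1c3, with -1.42 ± 0.46, did not pass (adjusted p = 0.111), nor did Adh7, with -0.93 ± 0.27 (adjusted p = 0.0658). Adh7 did pass under 4 alternative runs (adjusted p from 0.0191 to 0.0466) and Akr1c3 under 1 (adjusted p = 0.0379). Each dose comparison lay within its own array set, so that a difference between the sets in how RNA amounts were read cannot be told apart from age.

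Of these 4 calls, that of Akr1c13 held under every alternative run (adjusted p from 5.24e-06 to 0.001), and the others were close to the threshold. For Aldh18a1 the adjusted p rose to between 0.0577 and 0.0885 without replicate 3, 4 or 5 of either the vehicle or the DE-71 male pups, replicate 1, 4 or 5 of the vehicle adults or replicate 1, 3 or 4 of the DE-71 adults, and it was 0.0599 after a new quantile normalization and 0.0612 with the compared groups alone. For Aldh1b1 it rose to between 0.0502 and 0.0799 without replicate 3, 4 or 5 of the vehicle male pups, 1 or 4 of the DE-71 male pups, 2, 4 or 5 of the vehicle adults or 1, 2 or 5 of the DE-71 adults, and it was 0.07 with the compared groups alone and 0.0511 with trended, robust moderation. For Rdh10 it rose to between 0.0508 and 0.0725 without replicate 2, 3, 4 or 5 of the vehicle male pups, 2 or 4 of the DE-71 male pups, 2 or 4 of the vehicle adults or 3 or 5 of the DE-71 adults, and it was 0.0853 with both probe sets averaged. A second probe set of Rdh10, with a low signal, gave -0.25 (adjusted p = 0.521).

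Many of these enzymes differed between the ages. Between postnatal day 22 and week 13 in vehicle males, 23 of 51 members passed at 0.05 (45.1%, against 29.5% of all genes), 13 higher and 10 lower in adults; 10.9% of all genes were called higher and 18.6% lower. The ages did not overlap for 20 members (21.1% of all genes). In DE-71 males 21 of 51 passed (41.2%, against 18.8%), 9 higher (5.2% of all genes) and 12 lower (13.6%), and 15 did not overlap (13.4%). With the Gapdh difference as a covariate the counts were 19 and 16, and shares of all genes were not worked out for that fit. Of the 23 calls in vehicle males, 16 held under every alternative run; Adh1c, Aldh1a1, Aldh1a2, Aldh3a2, Aldh3b1, Dhrs7 and Dhrs13 were lost in at least 1. The groups lie in different array sets, and set and age cannot be told apart.

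Of the 7 members in the chromosome 17 cluster, 5 rose with age in vehicle males: Akr1c1, Akr1c13, Akr1c3, Akr1c19 and Akr1e2. No other of the 12 Akr1 members passed in either direction there (10.9% of all genes were called higher and 18.6% lower). The largest change among members was that of Akr1c1, whose older symbols include Hsd17b5, a 17-beta-hydroxysteroid dehydrogenase. Vehicle male pups read 4.62, 4.08, 4.56, 4.23 and 4.62 for Akr1c1, below the array median, and vehicle adults 9.62, 10.06, 8.73, 9.95 and 9.40. The difference was 5.13 ± 0.21 (35.1-fold, adjusted p = 1.66e-17) and may be too small, since the pup values lie at the low end of the scale. DE-71 male pups read 5.78, 4.78, 4.47, 4.83 and 4.88 and DE-71 adults 9.83, 10.06, 10.13, 9.49 and 10.07 (4.97 ± 0.21, adjusted p = 5.51e-17). Female pups lay in the same low range, at 4.54 ± 0.22 under vehicle and 4.89 ± 0.25 under DE-71 (SD, n = 5). No dose change of Akr1c1 passed, at 0.52, 0.35 and 0.36 in male pups, female pups and adults.

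Akr1c13 was 3.58 ± 0.14 higher in vehicle adults than in vehicle male pups (12-fold, adjusted p = 1.12e-17), Akr1c3 2.55 ± 0.33 (5.84-fold, adjusted p = 8.2e-07), Akr1c19 1.16 ± 0.15 (2.24-fold, adjusted p = 1.48e-06) and Akr1e2 0.78 ± 0.09 (1.71-fold, adjusted p = 9.72e-08). Akr1c14 gave -0.21 and Akr1c15 -0.31, neither past the threshold, though the other 2 probe sets of Akr1c14 fell (-0.53 and -0.41, adjusted p = 1.81e-05 and 0.00477). With the Gapdh difference as a covariate both genes were called lower in adults, at -0.54 (adjusted p = 0.00169) and -0.50 (adjusted p = 0.0313). In DE-71 males Akr1c1, Akr1c13, Akr1c3, Akr1c19 and Akr1e2 also passed, with differences of 4.97, 2.19, 1.13, 0.65 and 0.47. The test of age by dose passed for Akr1c13 and not for the other 4 (adjusted p from 0.111 to 0.869). The call of Akr1c3 there was lost under 2 alternatives (adjusted p = 0.0527 and 0.0815). The age comparison in vehicle males and the dose comparison in male pups share the vehicle pups as controls; for Akr1c13 the values side by side were 8.30 ± 0.23 in vehicle pups, 9.67 ± 0.43 in DE-71 pups and 11.89 ± 0.07 in vehicle adults (SD, n = 5).

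**Figure D3:**
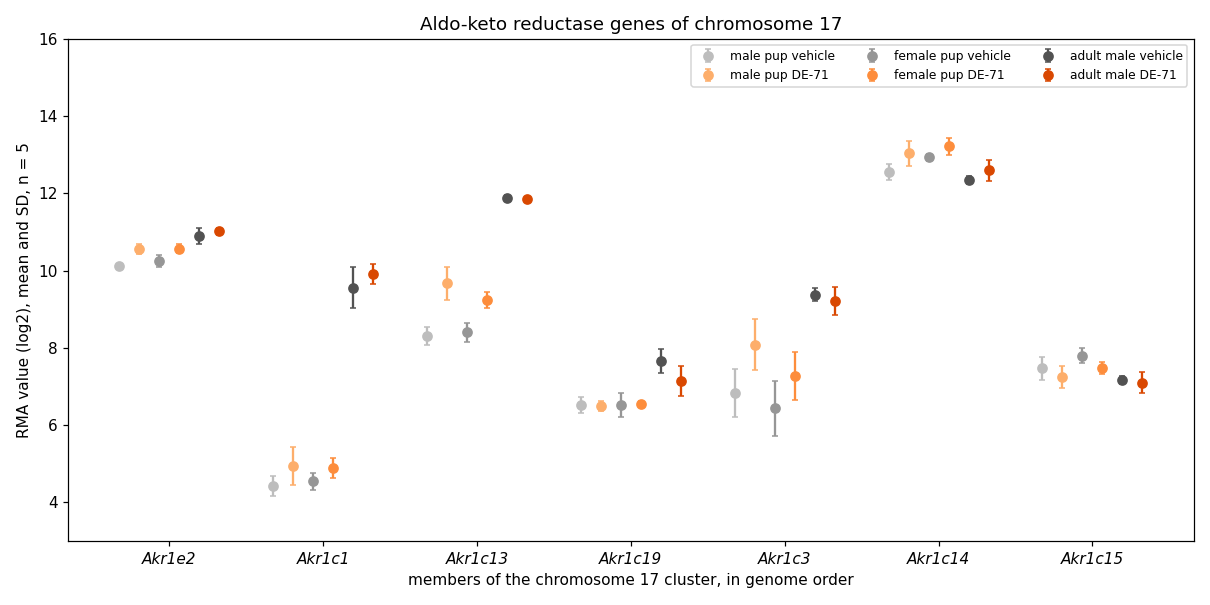
RMA log2 mean and SD (y axis, 5 arrays each) of the 7 aldo-keto reductase genes of the chromosome 17 cluster in the 6 groups, placed in genome order without spacing to scale (x axis); grey shades are vehicle and orange shades DE-71. Akr1e2, Akr1c1, Akr1c13, Akr1c19 and Akr1c3 are higher in adults, while Akr1c14 and Akr1c15 are not; levels of different genes are not comparable.

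The aldehyde dehydrogenases went both ways with age, with 4 of 16 higher and 6 lower in vehicle adults (10.9% and 18.6% of all genes). Aldh1b1 fell most, by 3.17 ± 0.23 on the log2 scale (8.99-fold lower, adjusted p = 1.44e-11), and by 1.91 ± 0.23 in DE-71 males (adjusted p = 5.34e-07). Aldh18a1 fell by 1.35 ± 0.16 (2.56-fold lower, adjusted p = 2.74e-07), and in DE-71 males by 0.47 ± 0.16 (adjusted p = 0.0487), a call lost under 9 alternatives. Aldh1a3 fell by 0.74 ± 0.11 (adjusted p = 1.17e-05) and Aldh1a2, also a retinal dehydrogenase, by 0.46 (adjusted p = 0.0168), which was lost without replicate 1 of the vehicle male pups (0.052). Aldh1a1 fell by 0.46 ± 0.16 in vehicle males (adjusted p = 0.0402). This call was lost without replicate 1, 2, 3 or 5 of the vehicle male pups or replicate 3 or 5 of the vehicle adults (adjusted p from 0.0666 to 0.153), with the Gapdh difference as a covariate (-0.31, adjusted p = 0.352) and with the compared groups alone (0.0881). Higher in adults were Aldh1l2, a mitochondrial enzyme of folate metabolism (0.73), Aldh7a1 of lysine breakdown (0.63), Aldh2 (0.47, adjusted p = 8.64e-05) and Aldh3a2, the fatty aldehyde dehydrogenase (0.25).

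Of the alcohol dehydrogenases, Adh7 was 0.93 ± 0.19 higher in vehicle adults (1.90-fold, adjusted p = 4.39e-04), and in DE-71 males the difference was 0.00 (adjusted p = 0.996). Adh5 was lower in adults of both doses (-0.37 and -0.41). Adh1c was lower by 0.22 ± 0.08 in vehicle males, just past the threshold (adjusted p = 0.0497). That call was lost without any 1 of the vehicle male pups or without replicate 2, 3, 4 or 5 of the vehicle adults (adjusted p from 0.0511 to 0.136), with the Gapdh difference as a covariate (0.217) and with the replicate block (0.0523). Among the retinol dehydrogenases, Rdh16 was 1.66 ± 0.23 higher in vehicle adults (3.15-fold, adjusted p = 3.2e-06) and 1.43 higher in DE-71 adults. It was 7.42 ± 0.64 and 6.95 ± 0.15 in vehicle and DE-71 male pups and 9.08 ± 0.44 and 8.37 ± 0.47 in the adults (SD, n = 5). Rdh10 was 0.64 ± 0.11 higher in vehicle adults (adjusted p = 5.64e-05) but not in DE-71 adults (0.03, adjusted p = 0.895); the age-by-dose test above is the test of that difference. Of the 10 Dhrs members, Dhrs7 was higher in vehicle adults (0.38) and Dhrs1 and Dhrs13 were lower (-0.38 and -0.26).

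**Figure D4:**
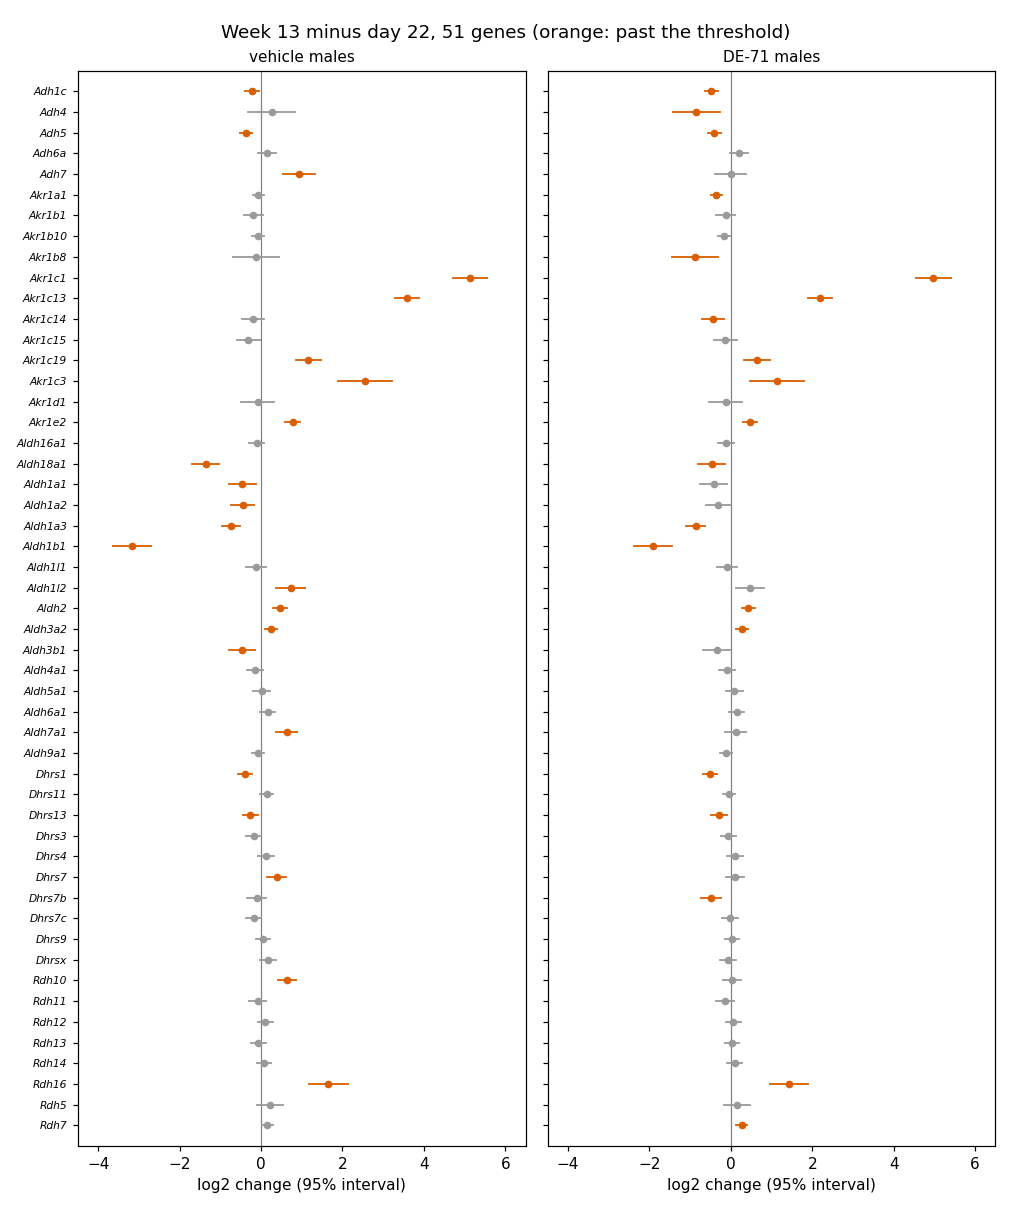
Difference between week 13 and postnatal day 22 (log2 adult minus pup, x axis) of all 51 genes (y axis) in vehicle males and in DE-71 males, with 95% intervals from the limma fit; 5 arrays a group. Orange marks genes past the threshold: Akr1c1 at 5.13 and Akr1c13 at 3.58 lie farthest to the right and Aldh1b1 at -3.17 farthest to the left in vehicle males, and 23 and 21 genes are orange in the 2 panels.

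Read from their representative probe sets, 22 members had no call in any of the 9 comparisons, and their changes under DE-71 lay between -0.44 and 0.30. They were Adh6a, Akr1b1, Akr1b10, Akr1c15, Akr1d1, Aldh16a1, Aldh1l1, Aldh4a1, Aldh5a1, Aldh6a1, Aldh9a1, Dhrs3, Dhrs4, Dhrs7c, Dhrs9, Dhrs11, Dhrsx, Rdh5, Rdh11, Rdh12, Rdh13 and Rdh14. They include mitochondrial enzymes of amino acid breakdown, such as Aldh4a1 for proline, Aldh5a1 for succinic semialdehyde and Aldh6a1 for valine. Under DE-71, a second probe set of Akr1d1 passed in male pups (0.50, adjusted p = 0.00845). Other probe sets of Aldh6a1 (-0.62 in female pups) and Akr1b10 (0.35 in male pups) lay outside the range above without passing. Other probe sets passed with age in vehicle males for Aldh6a1 (0.94, adjusted p = 0.00537) and Aldh5a1 (0.29, adjusted p = 0.0144). That probe set of Aldh5a1 averaged 8.40 in DE-71 male pups and 9.08 in DE-71 adults. A second probe set of Dhrs13 had the opposite sign to its representative with age (0.27 against -0.26).

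The 3 excepted genes carry the same name stems. Aldh3a1 rose in female pups (2.27 ± 0.52, adjusted p = 0.0045) and did not pass in male pups (0.91, adjusted p = 0.301) or adults (1.06, adjusted p = 0.304). Akr1b7 rose in adults (1.36, adjusted p = 0.00978), with 1.12 in male pups (adjusted p = 0.0149). Dhrs7l1 rose in male pups (1.00, adjusted p = 0.00895) and was at -0.86 in adults (adjusted p = 0.0569). The response of Dhrs7l1 differed between adult males and male pups by -1.86 (adjusted p = 0.00448). With age in vehicle males Dhrs7l1 rose by 8.40 and Akr1b7 fell by 5.74, larger differences than that of any member. In vehicle pups Akr1b7 was lower in males than in females (-1.88, adjusted p = 0.00305).

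Of the genes listed for retinoid handling, 25 of 28 could be read. The list also holds genes with wider parts in lipid or steroid metabolism, among them Lpl, Scarb1 and Hsd17b6. In male pups 2 rose and none fell (4.23% and 3.26% of all genes), with Lpl, a lipase that releases lipid from circulating particles, at 2.83 ± 0.33 and Dgat1, an acyltransferase, at 0.44 ± 0.07. In female pups Lpl and Dgat1 rose (2.24 and 0.46) and 4 genes fell (3.95% of all genes rose and 2.18% fell): Hsd17b6 (-2.32 ± 0.34), Rbp2 (-0.78), Lrat, which esterifies retinol for storage (-0.77 ± 0.16, adjusted p = 0.00164), and Scarb1 (-0.40). In adults 1 rose (1.86% of all genes), the retinol transporter Stra6 (0.33 ± 0.07, adjusted p = 0.00394). The median change of the list was -0.04, -0.04 and -0.02. With age in vehicle males 4 rose and 7 fell (10.9% and 18.6% of all genes), with Hsd17b6 (2.60), Rbp2 (-1.64), Cyp26b1, which degrades retinoic acid (1.46), and Rbp7 (1.03) changed most.

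Of 24 other listed genes of alcohol and carbonyl metabolism, 23 could be read. In male pups 8 rose and 1 fell (4.23% and 3.26% of all genes), with a median change of 0.23. The reductases Nqo1 (1.90 ± 0.26) and Akr7a3 (1.60 ± 0.31), the lipid-aldehyde conjugating transferase Gsta4 (1.29 ± 0.09) and Por, the electron donor of cytochromes P450 (1.13 ± 0.14), changed most. In female pups 7 rose and 2 fell (3.95% and 2.18% of all genes, median of the list 0.12), with Por at 1.31, Akr7a3 at 1.26, Gsta4 at 1.18 and Nqo1 at 1.18. In adults 3 rose and 1 fell (1.86% and 2.04% of all genes, median of the list 0.03): Por (1.15), Nqo1 (0.97), Gsta4 (0.59) and Hagh (-0.35). With age in vehicle males 8 rose and 6 fell (10.9% and 18.6% of all genes). Both lists were drawn up with earlier results on Nqo1, Gsta4 and Por known, so these counts are not independent evidence.

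Markers of other liver cells moved with some groups. In these bulk samples, fewer cells of a type and less RNA per cell cannot be told apart. In male pups under DE-71, 3 of 6 measured endothelial markers and 2 of 8 Kupffer cell markers fell, 1 of 10 stellate cell and fibroblast markers fell and 1 of 5 cholangiocyte markers rose; the summed endothelial level ran from 5590 to 6850 in vehicle and from 3540 to 4570 in DE-71 arrays, and the summed Kupffer cell level from 4760 to 5700 and from 3550 to 4030. The summed cholangiocyte level did not overlap between the doses in male pups (537 to 790 under vehicle, 981 to 1500 under DE-71). Nor did it overlap in female pups (565 to 766 and 797 to 1220) or in adults (397 to 575 and 759 to 1130). A sum of linear values can be carried by 1 gene. Of the 5 cholangiocyte markers, 1 passed in each dose comparison, and 2 or 3 had a group mean below the array median. In female pups 1 endothelial and 2 stellate markers fell and 1 cholangiocyte marker rose. Of these 2 stellate markers, 1 was Lrat, which is also counted in the retinoid list above. In adults 1 Kupffer cell and 1 of 7 lymphocyte markers fell and 1 cholangiocyte marker rose. No hepatocyte marker passed in a dose comparison, and none of the erythroid, adipose or exocrine pancreas markers did. With age in vehicle males 9 of 10 stellate cell and fibroblast markers, 4 of 6 endothelial and 4 of 5 erythroid markers fell, and the summed stellate level ran from 5350 to 8280 in pups and from 2060 to 2640 in adults. Their part in the results for Aldh1a1, Aldh18a1, Aldh1b1, the Akr1c genes and the other members was not tested.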

How the data were processed

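Liver RNA from 30 rats, 6 groups of 5, was measured on 1-colour arrays after a 2-cycle labelling of 50 ng of total RNA from the 3′ end, per the labels' protocols. The authors deposited log2 values made with RMA, per the submitters' processing notes; the software that ran it is not given in the sources used here. RMA forces all arrays to 1 distribution, which can hide a shift of all genes and compresses differences at both ends of the scale. The number of arrays limits the precision. The table held 31099 probe sets; 57 controls were kept for quality measures and 31042 were tested. By the platform annotation, 20826 probe sets name 1 gene, 436 name several and 9780 name none; all 51 members were matched to RefSeq by Entrez ID and no symbol had changed. The table had 0 unused value columns.

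The 30 arrays entered 1 linear model with a mean for each group (limma 3.58.1, R 4.3.3, lmFit and eBayes), and p-values were adjusted by Benjamini-Hochberg over all 31042. Shares of all genes are over the 14217 genes, each read from 1 probe set. The false discovery rate was 0.01 for pups and 0.05 for adults and for age by dose, as the series design gives it; the comparisons of age, which that text does not name, were also held at 0.05. Errors after a change are SE from the fit, and errors after a group mean are SD. On simulated data for the male pup comparison with 31042 probe sets, 60 of 100 changes of 0.5 and 92 of 100 changes of 1 were recovered, with 1 false call. Only these probe sets were changed in the simulation, and noise was drawn independently for each. Recovery and false calls in the real data may therefore differ. Nothing in the labels says that equal replicate numbers share a dam.

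Values on every array were given for members past a dose threshold with a log2 change of at least 1, or past the age-by-dose threshold; other members called under DE-71 were named with their change, and the 10 largest changes with age were named. Per-array values of Akr1c1, Akr1c3, Akr1e2, Adh1c, Adh7 and Rdh7, and the promoters, were added after the values were seen. The members and lists were chosen with earlier results of these data known. Alternatives were a new quantile normalization, a filter on low values, the groups of a comparison fitted alone, trended and robust moderation, the mean of all probe sets of a gene, the Gapdh 3′ minus 5′ difference as a covariate, the replicate number as a block, and leaving out each array.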

Additional observations from a re-analysis of the deposited data

Results flagged for a closer look

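Of 84 groups of 5 arrays examined, 5 had 1 array farther from the others than Dixon's criterion for 5 values allows (a gap of more than 0.71 of the range), where chance gives about 1 in 20. They were Akr1c3 in replicate 3 of the DE-71 male pups (6.93, others 8.29 to 8.60), Akr1c1 in replicate 1 of the vehicle female pups (4.92, others 4.39 to 4.49), Akr1e2 in replicate 4 of the DE-71 adults (10.87, others 11.03 to 11.08), Aldh1a1 in replicate 1 of the DE-71 male pups (13.73, others 13.51 to 13.57) and Aldh1a3 in replicate 4 of the DE-71 female pups (8.37, others 8.11 to 8.18).

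The response to DE-71 differed between adult males and male pups by a test of the difference itself (limma, adjusted over all probe sets) for 4 genes: Akr1c13 (-1.40), Aldh18a1 (0.88), Aldh1b1 (1.26) and Rdh10 (-0.61). Of these, the call of Akr1c13 held under every alternative run.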

How the results depend on the processing

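Under every alternative, 146 single-gene values were examined: all called values, and the uncalled values of the 14 members named by rule. Of these, 58 were called, of which 37 kept their call throughout and 21 lost it under at least 1 alternative. Of the 88 uncalled values, 7 gained a call. Uncalled values of the other members are not in this count. Some of them also gained a call, such as Akr1c14 in male pups and Dhrs3 and Dhrs7 in adults with the filter on low values. The dose calls of Aldh1a1 and Akr1c13, and those of Akr1e2 and Aldh18a1 in male pups, were kept throughout. The count in male pups was 4, and became 7 after a new quantile normalization and 9 with a filter on low values, which removed 5 members; in both cases the 4 genes were among those called. The filter took the count in adults from 3 to 6. Age by dose went from 4 to 2 with the compared groups alone. The causes were not tested. The share of all genes called was worked out for the main fit alone, so counts under the alternatives cannot be set against the whole array. The filter also lowers the number of probe sets tested. Leaving out 1 array gave 4 to 6 calls in male pups, 2 to 3 in female pups, 2 to 5 in adults, 19 to 22 for age in vehicle males and 16 to 21 in DE-71 males, and 0 for both sex comparisons and sex by dose. For age by dose it gave 1 to 5, with 1 call without replicate 4 or 5 of the vehicle male pups, replicate 4 of the DE-71 male pups or replicate 4 of the vehicle adults. In adults, 5 were called without replicate 1 or replicate 3 of the DE-71 group. Dhrs13 turned from a fall to 0.004 (adjusted p = 0.98) with age in vehicle males when all its probe sets were averaged. With a replicate block the counts were 4 in male pups, 3 in female pups, 3 in adults and 4 for age by dose. They were 21 and 20 for age, and 0 for the sex comparisons. Same-numbered arrays of different groups had a mean residual correlation of 0.00417, against -0.000906 for other pairs. Of the 75 same-numbered pairs, 18 lay above 0.1. Among arrays of other groups, 11 of 30 arrays were most like one of their own number. No matching count for other pairs or for chance was worked out. These counts therefore do not settle whether arrays of equal number are linked. Values near the top of the scale (Adh1c) and below the array median (Akr1c1 in pups, Aldh18a1) limit what can be read of those changes.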
